A study of Drosophila melanogaster with 800 samples.

Results

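The vitelline membrane protein genes of Drosophila melanogaster are described here across both sexes of an inbred line panel. The set holds Vm26Aa (FBgn0003979), Vm26Ab (FBgn0003980), Vm26Ac (FBgn0086266), Vm32E (FBgn0014076), Vm34Ca (FBgn0003983), Vml (FBgn0085362) and psd (FBgn0086265). They were chosen by name as a gene family, with earlier results of these data known, by a rule that uses no measured value. They were found by matching FlyBase symbols to the identifiers of the deposited expression table. All 7 were found, among 35014 features.

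The samples were whole flies of 200 lines of the Drosophila Genetic Reference Panel, which were made by 20 generations of full-sib mating from wild-caught females. Adults were mated, 3 to 5 days old and reared at 25 °C on cornmeal-molasses-agar. Each line gave 2 replicate pools of 25 females and 2 of 30 males, and each pool gave 1 strand-specific library of ribosome-depleted total RNA, for 400 female and 400 male libraries. Every line is a single inbred genotype, and every library averages over a pool of flies and over all tissues.

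The vitelline membrane is the inner layer of the insect eggshell. Somatic follicle cells around the oocyte secrete its proteins in mid-oogenesis, before they make the outer chorion layers, and the proteins are then crosslinked into an insoluble sheet. Because follicle cells are found only in ovaries, transcripts of these genes in a whole fly come mainly from egg chambers of the stages that build the membrane. In whole-fly RNA, fewer such cells and less RNA per cell cannot be told apart.

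Among the members, Vm26Aa (sV17), Vm26Ab (sV23) and Vm34Ca encode abundant vitelline membrane components, and mutants of Vm26Ab are female sterile. Vm26Ac is a further follicle cell gene of the same cluster. Vm32E encodes a component that is also found in the endochorion. Vml encodes a vitelline membrane protein that is a substrate of the Pipe sulfotransferase, which marks the ventral side of the eggshell. The product of psd, Palisade, is needed for assembly of the membrane. Vm26Ab, Vm26Ac, Vm26Aa and psd follow one another directly on chromosome arm 2L in the Ensembl annotation of BDGP6.54, with Vm26Ab on the plus strand and the other three on the minus strand. The block is flanked by CG13998 and CG13992. Vm32E and Vm34Ca lie elsewhere on 2L, and Vml is on X. The same annotation places Vm32E inside the span of Ca-beta on the same strand, so reads of an unspliced Ca-beta transcript could be counted as Vm32E.

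Recovered depth, in units of 1e6 reads, was 7.27 to 30.6 per female library and 7.87 to 30.4 per male library, with medians of 11.6 and 11.4. Values were FPKM, reads scaled to exon length and library depth, on a log2 scale whose floor of -9.97 stands for 0 reads. The female libraries of line 492 stood apart, with the lowest line mean of all 7 members. A further set of 53 male libraries held at least 10 reads summed over the 6 members other than psd. Sex markers followed the labels: SP, the seminal sex peptide, averaged -5.60 log2 FPKM in females and 9.68 in males, and Yp1, a yolk protein, averaged 12.3 in females and 0.66 in males.

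In females the most abundant member was Vm34Ca, and psd and Vm26Ab were the least abundant. Vm34Ca had 21.9, 212 and 761 FPKM (lowest, median and highest of 400 female libraries). Vm26Aa had 4.37, 121 and 490 FPKM in those libraries. Vm32E had 0.663, 83.5 and 378 FPKM. These 3 genes made up most of the family's output: Vm34Ca held 43.9% ± 4.75 of the summed FPKM of the 7 genes, Vm26Aa 25.3% ± 3.23 and Vm32E 17.6% ± 4.41 (SD, n = 400 female libraries). Vm26Ac followed with 0.0753, 25.8 and 116 FPKM. Vml had 0.257, 15.5 and 69.2 FPKM. Vm26Ab had 1.48, 10.7 and 45.1 FPKM, and psd had 2.08, 10.3 and 32.4 FPKM. Each of the 400 female libraries had at least 1 read of each member, and median read numbers ran from 83 for Vm26Ab to 1257 for Vm34Ca.

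Averaged over 200 female lines, the levels on the log2 FPKM scale were 7.69 ± 0.56 for Vm34Ca, 6.90 ± 0.60 for Vm26Aa and 6.33 ± 0.78 for Vm32E (SD of line means). They were 4.56 ± 0.85 for Vm26Ac, 3.92 ± 0.68 for Vml, 3.38 ± 0.57 for Vm26Ab and 3.35 ± 0.56 for psd. Neighbours in this order were compared within lines by a sign-flip permutation test. The largest step was that of Vm32E over Vm26Ac, 1.77 ± 0.64 log2 units (SD, n = 200 lines), with Vm32E higher in 199 lines. Vm34Ca exceeded Vm26Aa in all 200 lines, by 0.80 ± 0.24. The steps of Vm26Aa over Vm32E, Vm26Ac over Vml and Vml over Vm26Ab were 0.56, 0.64 and 0.53 log2 units, seen in 181, 179 and 190 lines. These 5 steps had adjusted p = 1.2e-05 in the permutation test, from the smallest p that 100000 permutations can give. Vm26Ab and psd did not differ beyond their spread on the log2 scale: the difference was 0.04 log2 units (95% interval -0.01 to 0.08), Vm26Ab was higher in 107 of 200 lines, and the adjusted permutation p was 0.0987. On the linear FPKM scale the same pair gave an adjusted permutation p of 0.0203.

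**Figure D1:**
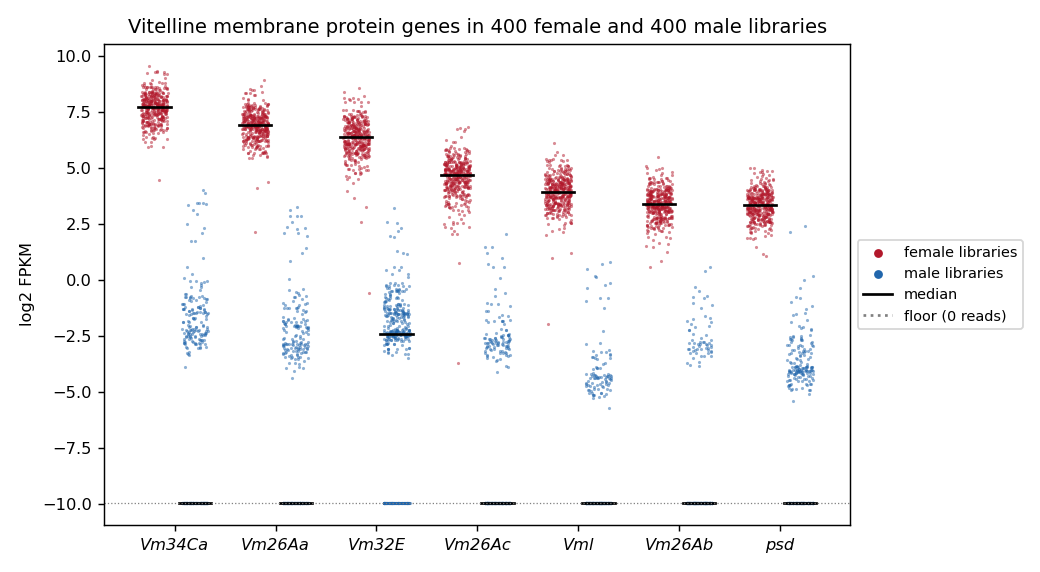
Log2 FPKM (y axis) of each member (x axis, in order of female level), with 1 point per library, female libraries left in red and male libraries right in blue, black bars for medians and a dotted line for the floor. Female values lie above 0 in all but a few libraries, while the male medians lie at the floor for 6 members and at -2.40 for Vm32E.

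Transcripts of all 7 genes were nearly confined to females. For Vm34Ca, 400 female libraries held 575451 reads in all and 400 male libraries held 1121. Vm26Aa had 504940 reads in female libraries and 1118 in male libraries. Vm26Ab, which had the fewest, had 37840 reads in females and 123 in males. The highest male library had 16.2 FPKM for Vm34Ca, 9.55 for Vm26Aa, 9.19 for Vm32E, 5.29 for psd, 4.13 for Vm26Ac, 1.72 for Vml and 1.51 for Vm26Ab. The male median was 0 reads for 6 members and 1 read for Vm32E. Male libraries at the floor made up 84.8% of 400 for Vm26Ab, 75.5% for Vml, 72.8% for Vm26Ac, 60% for Vm26Aa, 59% for Vm34Ca, 58.3% for psd and 31.8% for Vm32E, whose males can include Ca-beta reads. For Vm34Ca every female library exceeded the highest male library. For psd 374 of 400 female libraries did, and for the other 5 members 396 to 399 did.

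The female-minus-male difference of line means was 14.15 ± 0.21 log2 units for Vm34Ca (SE, n = 200 lines) and 13.67 ± 0.21 for Vm26Aa. It was 12.44 ± 0.18 for Vm26Ac, 12.38 ± 0.14 for Vml and 12.21 ± 0.14 for Vm26Ab. It was smallest for psd, 10.62 ± 0.16, and Vm32E, 10.61 ± 0.20. These sizes depend on the floor. With values put on log2(FPKM + 1), the differences were 7.44 for Vm34Ca, 6.71 for Vm26Aa, 6.02 for Vm32E, 4.55 for Vm26Ac, 3.98 for Vml, 3.48 for Vm26Ab and 3.42 for psd. All 7 members were called higher in females (limma, adjusted p of at most 4.89e-119), where 20.8% of 15447 genes tested were called in that direction and 37.2% were called higher in males. They entered the test through their female level alone, so the count of 7 is a description. Each member was higher in females in 200 of 200 lines. The smallest difference within a line was 1.63 log2 units, for psd in line 40, followed by 2.00 for Vm26Ac in line 492. No member reached a mean of 0 log2 FPKM in males, so line variation in males and its interaction with sex were not tested.

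The lines differed in how much of each transcript their females held. Broad-sense heritability, the share of variance among female libraries that lay between lines, was highest for Vm26Ac at 0.70 (95% interval 0.62 to 0.77). It was 0.64 (0.55 to 0.72) for Vm32E, 0.57 (0.47 to 0.66) for Vml, 0.53 (0.43 to 0.63) for psd and 0.51 (0.40 to 0.61) for Vm26Aa. Vm34Ca had 0.46 (0.35 to 0.56), and Vm26Ab had the lowest, 0.36 (0.24 to 0.48). All 7 were called for line variation (F test with limma's moderated variance, adjusted p of at most 5.06e-08), against 92.2% of 10931 genes tested in females. The median heritability of the members, 0.53, was close to that of all genes tested, 0.55. The spread itself was wider among the members, which had a median SD of 0.50 log2 units from line to line, against 0.22 for all genes tested. From replicate to replicate the median SD was 0.50 for the members and 0.20 for all genes tested. Such spread was not particular to the members. The chorion genes had line SDs of 0.58 to 0.70 and replicate SDs of 0.37 to 0.56. Line SDs of other eggshell and follicle cell genes ran from 0.19 for fs(1)N to 0.74 for yellow-g2.

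The replicate SD, which also holds differences between pools of flies, was 0.48 log2 units for Vm34Ca and 0.55 for Vm26Ab. The counting SD expected from the reads alone was 0.04 for Vm34Ca and 0.17 for Vm26Ab. The first replicate averaged higher for every member, by 0.31 log2 units for Vm34Ca (146 of 200 lines), 0.29 for Vm26Aa (141 lines), 0.28 for Vm32E (136 lines) and 0.25 for Vml (139 lines). The shift was 0.23 for Vm26Ab and for psd (128 and 136 lines) and 0.02 for Vm26Ac (110 lines). The labels give no day or batch for the replicate numbers, and this shift was not tested.

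The 7 transcripts varied together across lines. Over 21 pairs, Pearson's r between female line means ran from 0.67 to 0.92 with a median of 0.82, and Spearman's rho from 0.62 to 0.91. Every pair had p = 1e-05 in the permutation test, which is the smallest that 100000 permutations can give, and the adjusted values were the same. Without the 2 lines farthest from the median of the first gene, r ran from 0.60 to 0.91. It ran from 0.61 to 0.92 without line 492, from 0.67 to 0.93 within the first replicates alone and from 0.59 to 0.92 within the second replicates alone. The closest pair was Vm26Aa with Vm34Ca (r = 0.92, rho = 0.91), which are not neighbours on the chromosome. Vm26Ac stood farthest from the others, with a median r of 0.69, although it lies between Vm26Ab and Vm26Aa: its r was 0.67 with Vm26Ab and 0.69 with Vm26Aa. Vml, on X, had a median r of 0.84 with the members on 2L.

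The same genes also moved together between the 2 replicate pools of a line. The difference between replicates correlated with r of 0.50 to 0.92 over the 21 pairs, with a median of 0.80, given here as a description. Vm26Aa and Vm34Ca again had 0.92, and Vm26Ac with psd had the lowest value, 0.50. The eggshell gene dec, outside the family and described below, had r of 0.50 to 0.82 with the members in these replicate differences. The first principal component took 82.5% of the variance of the 7 standardized line means and 79.7% of that of the replicate differences. When one gene was taken from one replicate and its partner from the other, r between lines was 0.39 to 0.53. After removal of the shared replicate deviation, the line components of the pairs correlated with r of 0.67 to 0.95.

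**Figure D2:**
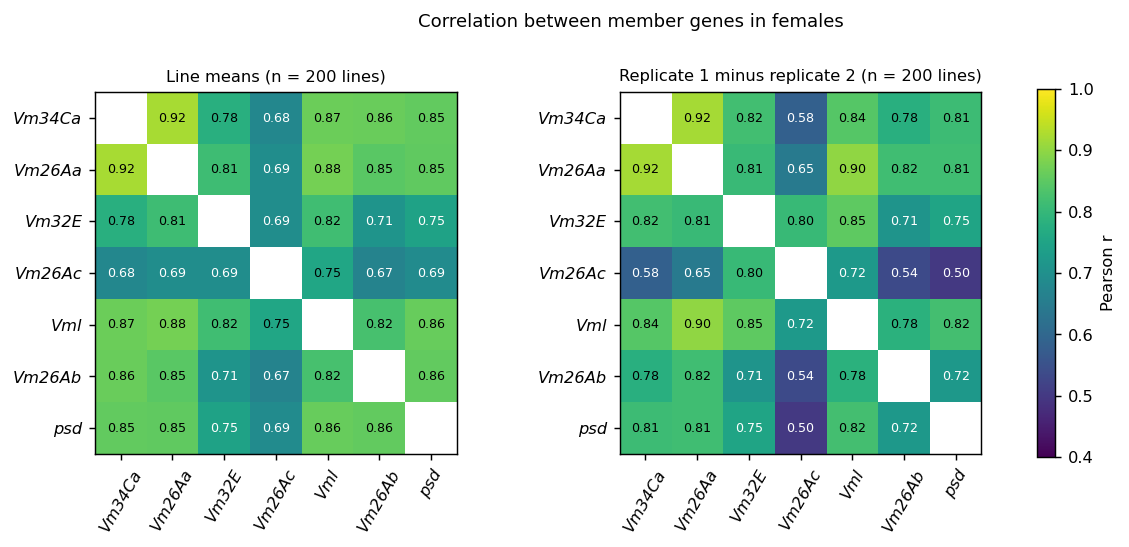
Pearson's r (colour and printed value) for each pair of members over 200 lines, for female line means on the left and for replicate 1 minus replicate 2 on the right, genes in order of female level. Values run from 0.67 to 0.92 on the left and from 0.50 to 0.92 on the right. Vm26Ac has the darkest row in both panels, apart from its pair with Vm32E on the right at 0.80.

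Line 492 had the lowest female mean of all 7 members. Its 2 replicates read 4.46 and 5.95 log2 FPKM for Vm34Ca, where the median of 200 line means was 7.69. For Vm26Aa they read 2.13 and 4.36, against a median of 6.91, and for Vm32E -0.59 and 2.58, against 6.39. Vm26Ac had 1 read in the first replicate, or -3.71, and 54 reads in the second, against a median line mean of 4.63. Vml read -1.95 and 1.22, against 3.94, Vm26Ab 0.57 and 2.47, against 3.38, and psd 1.06 and 1.49, against 3.36. The deficit was smallest for psd and Vm26Ab and largest for Vm26Ac and Vm32E. The chorion genes Cp36 and Cp15 were also lowest in this line: Cp36, an early chorion gene, read 0.53 and 2.42, against a median of 9.78, and Cp15, a late one, read 2.08 and 7.65, against 11.1. Of yolk and germline transcripts, Yp1 stood above 185 of 200 lines, osk, the germ plasm organizer, above 179, and bcd, the anterior determinant, above 31.

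Line 897 came second lowest for Vm26Aa, Vm34Ca, Vml and psd. Its replicates read 4.11 and 5.85 for Vm26Aa, 5.94 and 6.61 for Vm34Ca, 0.96 and 2.87 for Vml, and 1.15 and 2.57 for psd. Of the chorion genes looked up in this line, Cp36 read 9.52 and 9.64, above 74 of 200 lines, and Cp15 stood above 97. The follicle cell genes ndl and Fcp3C were low there, above 3 and 12 lines. Of the germline genes looked up there, bcd stood above 8 lines, otu above 11 and osk above 62. Yp1 stood above 73 lines and Yp2 above 47. Low ranks in line 897 were thus not limited to follicle cell genes. The second lowest line was 911 for Vm26Ab (2.76 and 1.26), 810 for Vm26Ac and 256 for Vm32E. At the upper end, lines 355 and 381 took both highest places for 5 members. In line 355, Vm34Ca read 9.57 and 9.22 and Vm26Aa 8.94 and 8.53. In line 381, Vm32E read 8.40 and 8.21, Vm26Ac 6.86 and 6.75, and psd 4.75 and 5.01. The exceptions were Vml, highest in line 73 (6.11 and 5.14), and Vm26Ab, second highest in line 233 (4.67 and 5.00).

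Each gene also had a deviation of its own. Each member was regressed on the mean standardized level of the other 6 over 400 female libraries, and the residual was followed in both replicates. The other 6 accounted for 85.8% of the variance of Vm26Aa and 85.7% of that of Vml, but 71.0% for Vm32E and 52.4% for Vm26Ac. The residual repeated between replicates most for Vm32E, with a heritability of 0.76 (95% interval 0.69 to 0.81). It was 0.63 (0.54 to 0.71) for Vml, 0.58 (0.48 to 0.66) for Vm26Aa and 0.58 (0.47 to 0.66) for Vm26Ac. Vm34Ca had 0.42 (0.30 to 0.53), psd 0.41 (0.29 to 0.52) and Vm26Ab 0.21 (0.07 to 0.34).

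The lines behind these deviations were picked after their values were seen. Line 492 had the largest deviation of Vm26Ab, Vm26Ac, Vml and psd. For Vm26Ab its replicates deviated by 1.52 and 1.21, and for Vm32E by -2.10 and -1.53. For Vm26Ac they deviated by -4.03 and -0.14, and psd likewise deviated mainly in the first replicate. The heritabilities of the residuals were not computed without line 492. Other lines are named next. In line 256, Vm32E read 3.98 and 3.67 log2 FPKM, below its level from the other genes by -2.89 and -2.23, where the SD of line deviations was 0.44. Its libraries held 169 and 67 Vm32E reads, and the other members were near their medians, with Vm34Ca at 8.11 and 6.99. The deposited variant density of Vm32E in line 256 was at its floor, so no variant is recorded in that gene there. Vm26Ac was low in line 810, at 2.04 and 2.04, and in line 373, at 2.91 and 2.57. Its deviations were -2.10 and -1.60 in line 810 and -2.38 and -1.27 in line 373, against an SD of 0.57. In line 884, Vm26Aa exceeded its level from the other genes by 1.00 and 1.14, against an SD of 0.23. Vm34Ca also exceeded its level in line 884, by 0.73 and 0.40, against an SD of 0.23.

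**Figure D3:**
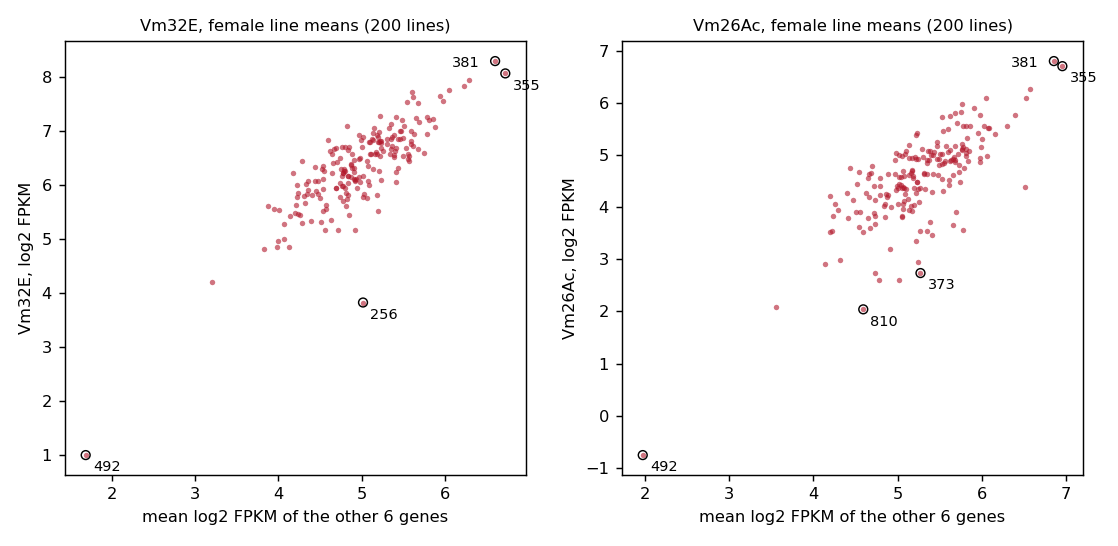
Female line means of Vm32E (left) and Vm26Ac (right) in log2 FPKM against the mean log2 FPKM of the other 6 members, 1 point per line, with named lines circled. Line 492 is low on both axes, lines 355 and 381 are high on both, and lines 256 for Vm32E and 810 and 373 for Vm26Ac are low on the y axis only.

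The genes outside the family that followed the members most closely over female lines included known eggshell genes. By Pearson's r over 200 line means, among genes with a symbol and a mean of at least 0 log2 FPKM, dec was nearest to every member. Also called dec-1, it encodes defective chorion, a protein secreted by follicle cells in the same stages, and it lies on X. Its r ran from 0.78 with Vm26Ac to 0.90 with Vml, and from 0.72 to 0.89 without the 2 farthest lines. CG14309, to which no role is given here, was among the 3 nearest of 5 members (r of 0.75 to 0.83). The nudel protease gene ndl, which acts in dorsoventral patterning and eggshell crosslinking, was likewise among the 3 nearest of 5 members (0.79 to 0.83). Fcp3C, a follicle cell protein gene, was among those of Vm26Ac and Vm32E (0.69 and 0.77), and CG31869 among those of Vm26Ab and psd (0.68 and 0.72). These genes were chosen for their r, so the values are a description.

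Genes were called as rising or falling with a member when the slope of their line means had an adjusted p below 0.05 (limma). The share of 10930 genes that rose was 9.41% with Vm34Ca, 5.57% with Vm26Ab, 4.01% with Vm26Aa, 2.96% with psd, 2.09% with Vm32E, 2.03% with Vml and 1.29% with Vm26Ac. The share that fell was 4.47% with Vm34Ca, 3.71% with Vm26Ab, 2.34% with Vm26Aa, 1.06% with psd, 0.512% with Vml, 0.21% with Vm32E and 0.174% with Vm26Ac. The median r of all genes with a member was between 0.00 and 0.03. These counts moved with the scaling of the libraries and with a covariate. With each library centred on its median, 4090 genes rose and 783 fell with Vm34Ca, in place of 1028 and 489. The same centring gave 2914 and 609 for Vm26Aa in place of 438 and 256, 2745 and 698 for Vm26Ab in place of 609 and 405, and 170 and 66 for Vm26Ac in place of 141 and 19. With the mean level of the germline genes as a covariate, an alternative added after the data were seen, 282 genes rose and 126 fell with Vm34Ca, and 245 rose and 113 fell with Vm26Aa. The total for Vm34Ca, 408, was then below that for Vm26Ab, 682.

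All 9 chorion genes rose with every member, with a median r of 0.49 for psd, 0.52 for Vm26Ab, 0.53 for Vm26Ac, 0.55 for Vm34Ca, 0.60 for Vm26Aa and Vml and 0.61 for Vm32E. Within this list, Cp7Fb, of the X-linked cluster amplified in follicle cells, had r of 0.58 to 0.73 over the 7 members. Cp36 and Cp38, the major early chorion genes of that cluster, had 0.51 to 0.68 and 0.51 to 0.67. Cp15, Cp16, Cp18 and Cp19, on 3L, ranged from 0.43 to 0.60. Without line 492 all 9 were still called with every member, and r ranged from 0.28 to 0.70.

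Of 12 other eggshell and follicle cell genes tested, 7 to 9 rose with a member and none fell. The list names dec as dec-1, which was not matched, so dec is not among the 12. Besides ndl and Fcp3C, those that rose with all 7 members were yellow-g (r of 0.52 to 0.66), yellow-g2 (0.49 to 0.68), Femcoat (0.51 to 0.62), Cad99C (0.43 to 0.63), a cadherin of follicle cell microvilli, and Mur11Da (0.37 to 0.54). Genes whose products are needed for vitelline membrane integrity or terminal patterning were among those with no call. The list holds eggshell genes as well as follicle cell genes, and it was not split by the cells that express each gene. The r of fs(1)N was 0.02 to 0.14, that of clos -0.07 to 0.05 and that of tsl -0.06 to 0.06, and none of the 3 was called with any member. Whole males held more tsl than females, 4.23 against 3.67 log2 FPKM, so its female values need not be from ovaries alone. After median centring fs(1)N was called with 2 members. The gene fs(1)M3 rose with 4 members (r of 0.10 to 0.26) and Pxt, a peroxidase, with 1 (0.08 to 0.20), and without line 492 these numbers were 6 and 2. Median centring raised the number for Pxt to 4. With the germline covariate fs(1)M3 rose with 1 member and Pxt with 0.

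Yolk genes differed in their calls. Yp1 rose with all 7 members (r of 0.26 to 0.41), and so did Yp2 (0.37 to 0.60). Yp3, whose r was 0.12 to 0.21, rose with Vm26Ab and Vm34Ca, and the yolk receptor gene yl, expressed in the oocyte, rose with the same 2 members (0.08 to 0.28 over all 7). Without line 492 yl rose with 5 members and Yp3 with 3, and after median centring yl rose with 4 and Yp3 with 2. With the germline covariate yl rose with 1 member and Yp3 with 0. Most germline genes were not called. The r of osk was -0.02 to 0.04, that of grk, which encodes the oocyte's signal to follicle cells, -0.12 to -0.04, and that of bcd 0.06 to 0.17, with no call for any of them. Whole males held nearly as much grk as females, 3.38 against 3.74 log2 FPKM, so its female values need not be from ovaries alone. Median centring gave bcd calls with 3 members. Among the 4 germline genes only otu rose, with 4 members (0.16 to 0.35), or with 6 without line 492 or after median centring. In females, roX2, an RNA of the male dosage compensation complex, fell with 5 members (r of -0.33 to -0.16), and roX1 fell with Vm26Ab (-0.20). Both were low in females, at means of 0.16 log2 FPKM for roX2, close to the filter of 0, and 1.31 for roX1. The replicate SD of roX2 in females was 1.06 log2 units. Without line 492, roX2 fell with 7 members and roX1 with 4, and median centring gave 3 for roX1. With the germline covariate roX2 fell with 3 members and roX1 with 0.

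**Figure D4:**
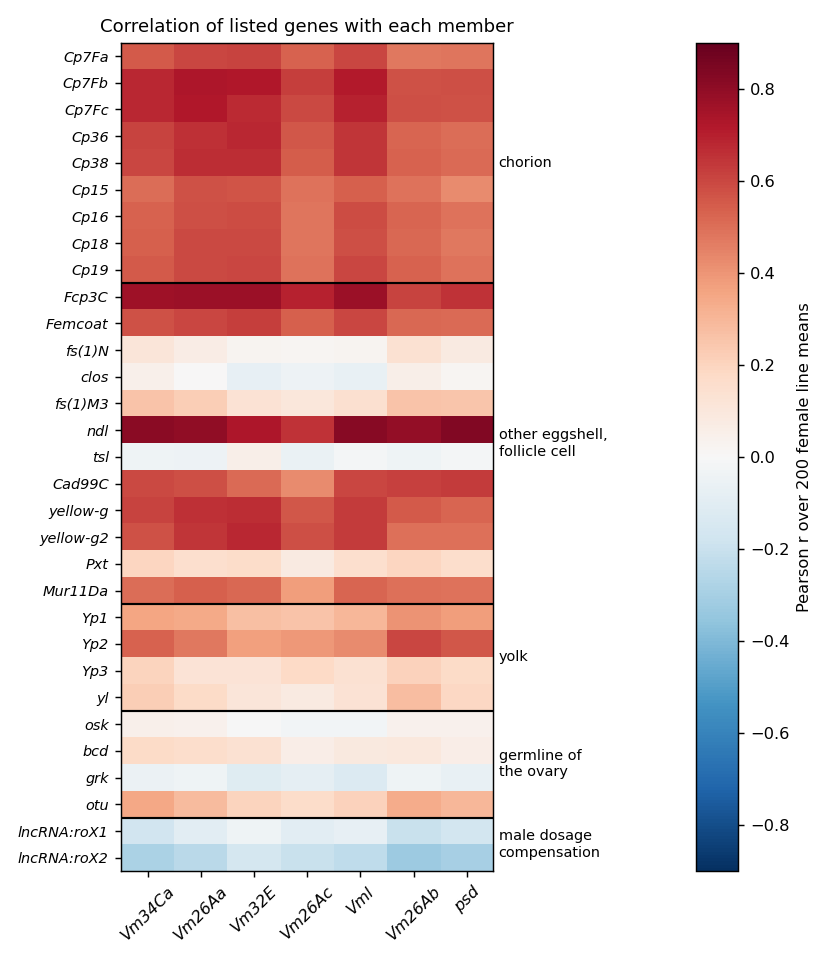
Pearson's r over 200 female line means (colour) between each listed gene (rows, grouped by list) and each member (columns, in order of female level). All chorion rows are red, from 0.43 to 0.73, whereas fs(1)N, clos, tsl, osk and grk are near white, between -0.12 and 0.14.

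In males, 2 patterns of the reads that remained are described here. Besides these, Vm32E had reads in 273 of 400 male libraries, against 61 (Vm26Ab) to 167 (psd) for the other members. Its reads, which can include Ca-beta, count in the sums below. In 53 of 400 male libraries the 6 members other than psd summed to at least 10 reads, where the median of all male libraries was 3 and 53 others had 0. Only 1 line had both of its male libraries in this set, and 51 lines had 1. The largest sum was 251 reads in replicate 1 of line 105, whose replicate 2 held 7. Replicate 1 of line 177 held 240 reads, against 3 in replicate 2, and replicate 1 of line 491 held 224, against 9. Over the 8 highest libraries the other replicate held 0 to 9 reads. The summed FPKM of the 6 genes in these 8 libraries was 3.46% to 6.91% of the female mean.

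Listed marker genes were summed in the same libraries, with no test. Not all of them were limited to females: grk averaged 3.74 log2 FPKM in females and 3.38 in males. For tsl the averages were 3.67 and 4.23, and for Cad99C 3.20 and 2.24. These genes enter the sums of the germline and other eggshell lists in all male libraries. The yolk list summed to 4.69, 29.9 and 1062 FPKM (lowest, median and highest) in the 53 libraries, and to 1.62, 6.97 and 639 FPKM in the other 347. The chorion list summed to 5.26, 15.2 and 929 FPKM in the 53 libraries and to 0.326, 6.76 and 499 FPKM in the 347. The 13 other eggshell and follicle cell genes summed to 20.8, 32.8 and 136 FPKM in the 53 libraries and to 16.9, 29.2 and 97.1 FPKM in the 347. The 4 germline genes summed to 6.89, 14.0 and 66.4 FPKM in the 53 libraries and to 6.16, 11.03 and 73.2 FPKM in the 347. Floor counts differed by gene: Cp36 was at the floor in 0 of the 53 and in 142 of the 347, and bcd in 0 and 96. For Cp7Fc the counts were 11 and 202, for Mur11Da 27 and 253, and for otu 0 and 0. The 53 libraries were picked on reads not scaled to depth, and floor counts also depend on depth. The ranges overlapped for every list. Among the 8 highest libraries Cp36 ran from -3.52 to 8.11 log2 FPKM. Male accessory gland genes summed to medians of 2115 and 2126 FPKM. Whether the member reads and these transcripts share a source was not tested. With these 53 libraries left out, the female-minus-male differences were 11.05 to 15.19 log2 units over the 7 members.

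The other pattern was psd in line 40. Its 2 male libraries held 64 and 85 psd reads, or 4.46 and 5.29 FPKM. Over the other 398 male libraries the median was 0 reads and the highest value 23 reads, or 1.15 FPKM. Both line 40 male libraries stood above every other male library. The 6 other members summed to 5 and 3 reads in the same 2 libraries. The neighbours of psd on the chromosome had low values there: Vm26Aa had 2 and 2 reads, and CG13992 was at -3.41 and -4.56 log2 FPKM. The females of line 40 read 4.04 and 3.79 log2 FPKM for psd, and their mean was above that of 175 of 200 lines. The deposited log2 variant density of psd in line 40 was 5.02, higher than in 192 lines and above the panel median of 3.28. Line 40 was singled out after its values were seen, and no test was made of it.

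**Figure D5:**
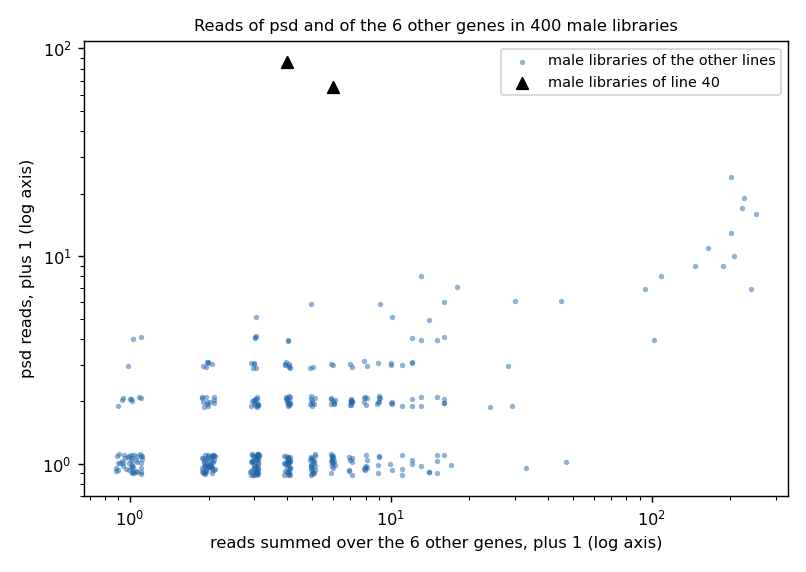
Reads of psd plus 1 against reads summed over the 6 other members plus 1, both on log axes, 1 point per male library, with small jitter under 10 reads. The 2 libraries of line 40 (triangles) have 64 and 85 psd reads with 5 and 3 reads of the other genes, while the libraries at the right have up to 251 reads of the other genes and at most 23 of psd.

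The deposited density of sequence variants per gene and line was compared with expression in females. Over 200 lines, r was 0.10 for Vm26Aa, 0.08 for Vm26Ab, 0.03 for Vm26Ac, -0.04 for Vm32E, -0.10 for Vm34Ca, -0.20 for Vml and 0.08 for psd. Vml alone was called (limma over 10638 genes, adjusted p = 0.0266), where 19.5% of all genes tested were called. Its permutation p was 0.00442 for r and 0.0282 for rho, which was -0.15. Adjusted over the members, the permutation p was 0.0309 for r and 0.166 for rho. By rank Vml was no longer called over all genes (adjusted p = 0.0837, limma). The 160 lines above the density floor averaged 3.85 ± 0.68 log2 FPKM for Vml, and the 40 lines at the floor averaged 4.19 ± 0.58 (SD of line means). Within the 160 lines alone r was -0.04 (adjusted p = 0.812, limma). Without the 2 lines farthest from the median density r was -0.20. Those 2 were among the 40 lines tied at the floor, so this value cannot show whether r rests on the floor lines.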

How the data were processed

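Per the deposited tables, expression is given as log2 FPKM in every library, and its lowest value is the log2 of a pseudocount of 0.001. A further deposited table gives a log2 variant density for each gene in each line. The authors' own line means were not used here. The submitters' processing notes name cutadapt, BWA 0.7.10, STAR 2.4.0e, Cufflinks 2.2.1, HTSeq and edgeR, and the builds BDGP5 and dm3, with no role or order. Reads were single-end, per the labels' protocols. Reads aligned to a reference can be lost at variants, which was not tested.

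Depth was recovered from the FPKM steps of 1786 features: 99.9% of 421716 low values were whole reads within 0.05. Because tests ran on log2 values, limma 3.58.1 in R 4.3.3 was used, with Benjamini-Hochberg adjustment, after a filter of mean log2 FPKM of at least 0 over females or over males in sex comparisons, and over females elsewhere. The sex difference was called at an adjusted p below 0.05 and at least 1 log2 unit. Functions were tested on simulated data. Permutation tests were two-sided, in Python 3.11.15 with numpy 2.4.6. Pools are replicates, and lines are the units of all tests, while male marker sums and the regression of a member on the others are described over libraries.

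Named genes were the 7 members, the listed marker genes, the 3 nearest non-member genes and the 2 highest and 2 lowest lines of each member. The members and lists were chosen with earlier results of these data known. Of the lists, 13 of 14 other eggshell, 4 of 6 germline and 3 of 4 accessory gland genes were matched by symbol, and pip was below the filter. The unmatched eggshell entry, dec-1, is an older name of dec, and Acp70A is another name of SP. Symbols were found for 16733 of 17097 features with FlyBase identifiers. Testis genes averaged -2.45 to -4.58 log2 FPKM in females and 8.42 to 9.46 in males. Sequences are not shown, as no sequence of the files' build was used here.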

Additional observations from a re-analysis of the deposited data

How the results depend on the processing

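All 7 members stayed higher in females and called for line variation under every alternative run: log2(FPKM + 1), median-centred libraries, either replicate alone (sex difference only), no filter on low values, a rank transform (line variation only), and without line 492. The sex difference was also kept without line 40 and without the 53 male libraries of 10 or more reads, both chosen after the data were seen. The median of the genes tested was -0.54 log2 units in females minus males, and centring raised each sex difference by that amount, to 11.2 to 14.7. The correlation of replicate differences between sexes had a median of 0.05 over 200 lines. It ran from -0.23 to 0.41, and 59 lines exceeded 0.1. Deviations shared by female and male libraries of the same number were thus weak in the median line, but not absent from every line. With replicate number as a block (replicate block), the sex differences were 10.6 to 14.2, as without it, and heritabilities were 0.398 to 0.70, against 0.363 to 0.701 without the block. The 21 pair correlations stayed called with r of 0.59 to 0.93, including without lines 492 and 897 and after removal of the germline level.

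The counts of genes that rise or fall with a member depended most on the setting. Median centring gave 3523 for Vm26Aa, 3443 for Vm26Ab, 612 for Vm32E, 4873 for Vm34Ca, 567 for Vml and 1515 for psd, where the values without it were 694, 1014, 251, 1517, 278 and 440. Leaving out line 492 gave 1066 for Vm26Aa and 461 for Vml. A germline covariate, added after the data were seen, gave 358 for Vm26Aa and 408 for Vm34Ca. The cause was not tested. The density correlation of Vml was no longer called by rank (-0.155) or above the density floor (-0.0351). The step of Vm26Ab over psd was 0.0480 log2 units as a ratio of median FPKM, which was not itself tested. The difference of linear FPKM within lines passed the threshold in the sign-flip permutation test (adjusted p = 0.0203). Depth limits the male values, where the median was 0 reads for 6 members and 1 read for Vm32E.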
